A study of Mus musculus with 12 samples.

Results

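The mouse metallothionein genes Mt1, Mt2 and Mt3 were described in cultured astrocytes, neural stem cells and a glioblastoma culture. They were found by gene symbol in each of 12 tables of FPKM, in which the fragments of a gene are scaled for transcript length and for the size of the library. Each symbol stood on 1 line of every table, and the 3 genes are 3 of 53932 gene identifiers. Total RNA was sequenced from 4 groups of 3 libraries, all labelled with mouse strain C57BL/6. MIM-Astrocytes are labelled with cortex of E14.5. By the protocol, confluent astrocytes were moved into MIM, a serum-free medium with FGF2 at 20 ng/mL and up to 6 metabolites, chosen among the amino acids cysteine, glycine, methionine and threonine, the polyamine putrescine and the methyl donor S-adenosylmethionine, and were collected within 5 days. Glioblastoma is labelled with cerebella of E18.5, and how that tumour culture was made is not given in the sources used here. NSC are neural stem cells, taken from the cortex at E14.5, that grew as floating neurospheres in EGF and FGF2 (20 ng/mL of each) for no more than 3 passages. Astrocytes are labelled with E14.5 cortex and were grown with 10% serum. The protocol describes astrocytes both from sorted cells of postnatal cortex and from neurospheres that were made to differentiate, and no label says which of them were sequenced. Medium, serum and group changed together and cannot be told apart. The same holds for the labelled region and age of Glioblastoma, cerebella of E18.5 against cortex of E14.5 in the other groups. Whether each library of a group had a culture of its own is not stated, so the spread between the libraries may be technical.

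Metallothioneins are small proteins rich in cysteine, whose thiol groups bind zinc and copper and can also detoxify cadmium and react with oxidants. Mt1 and Mt2 are made in most tissues and are induced by zinc through the transcription factor MTF1, which binds metal response elements in their promoters, and also by glucocorticoids and by cytokines that act through STAT3. Mt3, first described as growth inhibitory factor, is mainly a gene of the brain, and is much less responsive to metals than Mt1 and Mt2. In the brain, astrocytes are a main site of Mt1 and Mt2.

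The 3 genes lie close together on the plus strand of chromosome 8 (GRCm38), in the order Mt4, Mt3, Mt2 and Mt1. Mt3 (ENSMUSG00000031760.9) spans chr8:94152607-94154146, Mt2 (ENSMUSG00000031762.7) spans chr8:94172664-94173568 and Mt1 (ENSMUSG00000031765.8) spans chr8:94179082-94180327. Mt2 ends 5513 bases before Mt1 starts, and Mt3 ends 18517 bases before Mt2 starts. The promoters are shown because the 3 genes were all highest in Astrocytes and lowest in Glioblastoma, and because metal response elements are the best known control of Mt1 and Mt2. Each sequence is the plus strand of GRCm38.p6 from RefSeq, with 250 bases before the RefSeq start and 30 from it on. Capitals mark complete matches to the core of the metal response element, searched as TGCACNC or TGCGCNC on both strands.
Mt1, chr8:94178839-94179118: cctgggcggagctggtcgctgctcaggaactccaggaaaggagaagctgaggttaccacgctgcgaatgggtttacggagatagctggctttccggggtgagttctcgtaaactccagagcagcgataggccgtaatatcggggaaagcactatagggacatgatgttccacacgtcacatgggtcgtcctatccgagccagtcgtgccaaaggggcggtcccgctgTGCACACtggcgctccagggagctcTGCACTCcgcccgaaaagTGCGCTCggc
Mt2, chr8:94172368-94172647: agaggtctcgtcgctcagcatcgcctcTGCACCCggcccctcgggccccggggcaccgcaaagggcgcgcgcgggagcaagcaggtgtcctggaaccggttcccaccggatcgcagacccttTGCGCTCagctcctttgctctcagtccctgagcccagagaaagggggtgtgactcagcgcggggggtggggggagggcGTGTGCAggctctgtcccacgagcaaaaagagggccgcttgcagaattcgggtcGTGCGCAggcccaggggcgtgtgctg
Mt3, chr8:94152357-94152636: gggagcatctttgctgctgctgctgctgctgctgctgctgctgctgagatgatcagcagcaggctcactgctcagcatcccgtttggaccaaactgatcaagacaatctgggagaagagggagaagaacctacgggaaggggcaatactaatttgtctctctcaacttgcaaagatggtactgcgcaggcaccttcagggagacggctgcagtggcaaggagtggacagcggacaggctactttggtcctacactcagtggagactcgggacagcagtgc
The window searched was 300 bases long, and the first 280 bases of it are shown. Positions are counted from the start base as 1, with negative numbers before it. Mt1 had 3 matches, beginning at -23, 3 and 21. Mt2 had 4, beginning at -223, -128, -50 and 5. Mt3 had 1, beginning at 28, which runs past the end of the part shown. Of 32851 mouse promoters of that length in the same RefSeq table, 25.7% held at least 1 match, 1.97% held at least 3 and 0.517% held at least 4. The antioxidant response element core TGACNNNGC occurred in Mt2 (1 match) and in 12.4% of all promoters. The letters AGAACA, part of the site of the glucocorticoid receptor and present in 19% of all promoters, and the STAT motif TTCNNNGAA, in 8.3%, had no match in the windows of Mt1, Mt2 and Mt3. These matches are letters in a window set by 1 annotated start and describe no binding. For Mt1 and Mt2 the RefSeq start may lie upstream of the start used in the promoter literature. The windows may therefore miss elements, and the positions and counts hold for the RefSeq start only.

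Reads of similar copies can be shared, so the likeness of the transcripts was measured. The best alignment of Mt1 with Mt2 covered 192 bases at 79.2% identity, that of Mt1 with Mt3 covered 158 bases at 73.4%, and that of Mt2 with Mt3 covered 157 bases at 73.9%. The longest stretches that Mt1 had letter for letter in common with Mt2 and with Mt3 are shown, in capitals throughout, since a read would have to be this short to fit both genes without a mismatch.
Mt1 and Mt2: ATGGACCCCAACTGCTCCTG
Mt1 and Mt3: CTGCAAGAAGAGCTGCTGCTCCTGCTG
They are 20 and 27 bases long, and both lie in the coding sequence, the first of them at the start codon. No stretch of 50 bases was common to any pair of the 3 genes, and of 25 bases only the pair Mt1 and Mt3 shared 3. The read length is not given in the sources used here. Mt2 is different with respect to an antisense gene, RP23-98C9.5 (Gm45774 in GENCODE), whose span on the minus strand overlaps that of Mt2 by 749 bases. Of the 554 distinct stretches of 50 bases in Mt2 transcripts, 254 also occur in that antisense RNA. Whether the libraries kept strand is not given, so reads of the gene and its antisense partner cannot be told apart.

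The 12 libraries each listed 14461 to 14919 genes at 1 FPKM or more, and within a group pairs of libraries correlated at 0.968 to 0.977 across genes. The files hold no counts, and the 95% intervals that Cufflinks gives show the precision. Around a value near 10 FPKM their median width to each side was 8.66% to 10.6% of the value. Of 9 astrocyte markers, 9 reached 1 FPKM in every library of MIM-Astrocytes and of Astrocytes, 8 in NSC and 7 in Glioblastoma. Glioblastoma held 0.125 ± 0.0285 FPKM of the water channel gene Aqp4 and 1.54 ± 0.614 FPKM of the gap junction gene Gja1 (SD, n = 3 each). Microglial markers summed to at most 1.29 FPKM and endothelial markers to at most 0.727 FPKM in any library. The summed 9 astrocyte markers were 1730.4 to 2110.0 FPKM in MIM-Astrocytes, 577 to 604 in Glioblastoma, 886 to 1026 in NSC and 1865 to 2171 in Astrocytes. Other marker sums moved with the groups too. Neural stem cell markers summed to 4236 to 4617 FPKM in MIM-Astrocytes, 933 to 1077 in Glioblastoma, 2852 to 3365 in NSC and 833 to 1047 in Astrocytes. The sum of neuronal markers was highest in NSC (271 to 299 FPKM, against 104 to 110 in Astrocytes), as was that of oligodendrocyte markers (144 to 163, against 33.9 to 40.5). Of 5 neuronal markers 2 reached 1 FPKM in every NSC library, and of 6 oligodendrocyte markers 4 did. Not all went the same way. By the limma test below, 2 of 3 tested neuronal markers were higher and 1 lower in NSC than in Astrocytes. Of 4 tested oligodendrocyte markers 3 were higher and 1 lower, beside 37.7% and 33.4% of all tested genes. Against Astrocytes, 3 of 9 astrocyte markers were higher and 6 lower in NSC, 3 and 3 in MIM-Astrocytes and 0 and 8 in Glioblastoma. Of 7 neural stem cell markers 6 were higher and 0 lower in NSC, 6 and 1 in MIM-Astrocytes and 4 and 1 in Glioblastoma. Of all tested genes 34.8% were called higher and 26.6% lower in MIM-Astrocytes, and 47% and 31.3% in Glioblastoma. With libraries scaled to a common total, 0 astrocyte markers were higher and 6 lower in NSC, beside 3784 and 7852 of all genes. Meningeal fibroblast markers were highest in Astrocytes. The sum of the 6 genes was 19.4 to 22.1 FPKM in MIM-Astrocytes, 0.386 to 0.661 in Glioblastoma, 1.08 to 1.34 in NSC and 280.0 to 328 in Astrocytes, where 4 of the 6 reached 1 FPKM. It came mostly from Ogn, Islr and Fmod, while Lum was listed at 0 in MIM-Astrocytes, NSC and Astrocytes, and Dcn averaged 0.0584 FPKM in Astrocytes. The sum of 5 ependymal markers was 10.4 to 12.3 FPKM in MIM-Astrocytes, 0.425 to 0.478 in Glioblastoma, 2.26 to 2.74 in NSC and 33.7 to 41.9 in Astrocytes, nearly all of it Foxj1. The part of such cells in the levels below was not tested, and in bulk RNA fewer cells of a type cannot be told apart from less RNA per cell.

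Mt1 had the highest level in Astrocytes, close levels in MIM-Astrocytes and NSC, and the lowest in Glioblastoma. MIM-Astrocytes held 896, 984 and 893 FPKM. Glioblastoma held 33.3, 34.1 and 37.2 FPKM, and NSC held 979, 922 and 799 FPKM. Astrocytes held 6060.4, 7058 and 5451 FPKM. The lowest Astrocytes library was thus far above every other library, every Glioblastoma library was far below the rest, and the libraries of MIM-Astrocytes and NSC overlapped. The group means were 924 ± 51.3, 34.8 ± 2.08, 900.1 ± 92.2 and 6190 ± 811 FPKM (SD, n = 3 each), in the order MIM-Astrocytes, Glioblastoma, NSC and Astrocytes.

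Mt2, the close partner of Mt1 5513 bases upstream of it, followed the same order with a wider range. MIM-Astrocytes held 571, 529 and 491 FPKM. Glioblastoma held 9.06, 7.85 and 8.14 FPKM, while NSC held 571, 523 and 440.1 FPKM. Astrocytes held 5479.7, 6335 and 4876 FPKM. Again MIM-Astrocytes and NSC overlapped and the other groups stood apart from them and from each other. The means were 530.3 ± 40.4 FPKM in MIM-Astrocytes, 8.35 ± 0.629 in Glioblastoma, 511 ± 66.3 in NSC and 5563 ± 733 in Astrocytes (SD, n = 3 each).

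Mt3, the brain member, had the same order of group means as Mt1 and Mt2, but in it MIM-Astrocytes lay well above NSC. MIM-Astrocytes held 1386, 1828 and 1672 FPKM. Glioblastoma held 5.69, 6.94 and 8.26 FPKM, and NSC held 257, 255 and 225 FPKM. Astrocytes held 2957, 3060.2 and 2489 FPKM. No groups overlapped. The means were 1629 ± 224 FPKM in MIM-Astrocytes, 6.96 ± 1.29 in Glioblastoma, 246 ± 18.0 in NSC and 2835 ± 305 in Astrocytes (SD, n = 3 each).

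**Figure D1:**
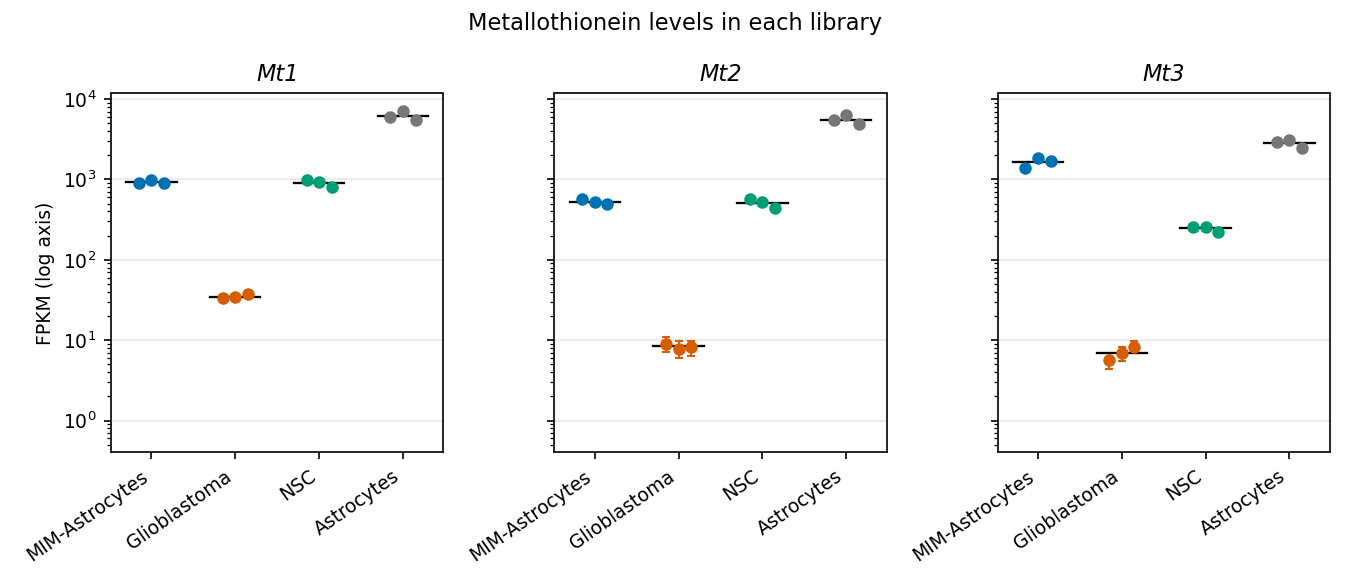
FPKM of Mt1, Mt2 and Mt3 in each of the 12 libraries on a log axis, with the Cufflinks interval as error bars (hidden by the point where narrow) and a line at each group mean. Astrocytes are highest and Glioblastoma lowest for all 3 genes, and only for Mt3 do MIM-Astrocytes (1386 to 1828 FPKM) lie clear of NSC (225 to 257 FPKM).

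Set against all protein-coding genes of the same library, the 3 genes were among the most abundant transcripts everywhere but in Glioblastoma. In the 3 Astrocytes libraries Mt1 ranked 1, Mt2 ranked 2 and Mt3 ranked 8. In MIM-Astrocytes Mt3 ranked 12 to 13, ahead of Mt1 at 24 to 29 and Mt2 at 40 to 63. In NSC Mt1 ranked 29 to 31, Mt2 57 to 63 and Mt3 150 to 156. In Glioblastoma Mt1 ranked 2195 to 2408, Mt2 6963 to 7425 and Mt3 7270 to 8420. The 3 genes together made up 0.856% ± 0.0274 of all protein-coding FPKM in MIM-Astrocytes, 0.0124% ± 0.000368 in Glioblastoma, 0.512% ± 0.0223 in NSC and 4.13% ± 0.176 in Astrocytes (SD, n = 3 each). The Cufflinks interval was 3.67% to 5.01% of the value to each side in MIM-Astrocytes, NSC and Astrocytes. It was wider in Glioblastoma, at 8.67% to 9.72% for Mt1, 21.5% to 23.2% for Mt2 and 17.4% to 22.7% for Mt3, still far narrower than the gap to the next group. FPKM of such short transcripts (388 to 1085 bases) also depends on the fragment length assumed by the software, whose part in the levels was not tested.

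Differences were tested with limma on log2(FPKM + 1), with all 12 libraries in 1 fit and Benjamini-Hochberg adjustment over 16982 genes in each comparison, and a gene counts as called when its adjusted p is below 0.05. The groups differed widely: 61.4% of the tested genes were called between MIM-Astrocytes and Astrocytes, 78.3% between Glioblastoma and Astrocytes and 71.2% between NSC and Astrocytes. In 1 direction, libraries that do not overlap were about as common as calls: they lay lower for 27.8% of genes in MIM-Astrocytes, 31.9% in Glioblastoma and 34.2% in NSC against Astrocytes, lower for 27.3% in Glioblastoma against NSC, and higher in MIM-Astrocytes for 34.1% against NSC and 30.5% against Glioblastoma. Being called therefore says little by itself, and the size of a difference and its rank among all genes say more.

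MIM-Astrocytes against Astrocytes sets serum-free MIM, with FGF2 and metabolites, against medium with 10% serum. All 3 members were lower in MIM-Astrocytes, and 26.6% of all tested genes were called lower there. Mt2 fell by 3.38 on the log2 scale (SE 0.12, adjusted p = 3.83e-09 in limma), and its mean FPKM in Astrocytes was 10.5 times that in MIM-Astrocytes. Mt1 fell by 2.74 (SE 0.12, adjusted p = 1.28e-08), with a ratio of 6.70 between the means of Astrocytes and MIM-Astrocytes. Mt3 fell by only 0.80 (SE 0.14, adjusted p = 0.000712), with a ratio of 1.74. In a list of all tested genes from the largest fall, Mt2 stood at rank 89, Mt1 at rank 176 and Mt3 at rank 1989. Over the alternatives that fit all 12 libraries these ranks ran from 79 to 284 for Mt2, from 132 to 486 for Mt1 and from 978 to 2570 for Mt3. The highest of each came with a pseudocount of 0.1. For Mt2 and Mt3 the lowest came with a filter that left fewer genes to rank (mean of at least 5 FPKM). A fall of at least 2-fold on that scale, which Mt1 and Mt2 passed and Mt3 did not, was reached by 8.43% of tested genes.

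Glioblastoma against Astrocytes gave the largest differences, and in it 31.3% of all tested genes were called lower. Mt2 fell by 9.21 on the log2 scale (SE 0.12, adjusted p = 2.01e-12 in limma), and no other tested gene fell further on this scale. Mt3 fell by 8.48 (SE 0.14, adjusted p = 8.16e-12) and stood at rank 5 of the falls, and Mt1 fell by 7.43 (SE 0.12, adjusted p = 5.23e-12) and stood at rank 13. As ratios of mean FPKM, Astrocytes held 666 times as much Mt2, 407 times as much Mt3 and 178 times as much Mt1 as Glioblastoma. The ranks moved with the processing, between 1 and 12 for Mt2, between 4 and 16 for Mt3 and between 11 and 41 for Mt1 over the alternatives that fit all 12 libraries.

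NSC against Astrocytes, the stem cells against the cell type they can form, showed all 3 genes lower, Mt1 by the least, with 33.4% of all tested genes called lower. Mt3 fell by 3.52 (SE 0.14, adjusted p = 6.14e-09 in limma), Mt2 by 3.44 (SE 0.12, adjusted p = 2.37e-09) and Mt1 by 2.78 (SE 0.12, adjusted p = 8.02e-09) on the log2 scale. Their ranks among the falls were 157, 164 and 306. Over the alternatives that fit all 12 libraries they ran from 138 to 473 for Mt3, from 145 to 501 for Mt2 and from 173 to 786 for Mt1. The means in Astrocytes were 11.5 times those in NSC for Mt3, 10.9 times for Mt2 and 6.88 times for Mt1. These 3 comparisons share the Astrocytes libraries, so their values are set side by side and are not independent of each other.

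Between MIM-Astrocytes and NSC, where 55.9% of tested genes were called in either direction, the 3 genes parted. Mt3 was higher in MIM-Astrocytes by 2.72 on the log2 scale (SE 0.14, adjusted p = 1.63e-07 in limma), a ratio of 6.63 between the means. It stood at rank 39 among all rises (31 to 194 over the alternatives that fit all 12 libraries). For Mt1 the difference was 0.04 with a 95% interval of -0.22 to 0.31 (adjusted p = 0.783 in limma), and for Mt2 it was 0.06 with an interval of -0.22 to 0.34 (adjusted p = 0.719). Neither passed the test, their libraries overlapped, and the sign of both changed with the processing.

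Glioblastoma was also far below NSC, a comparison in which 25.1% of tested genes were called lower. Mt2 fell by 5.77 (SE 0.12, adjusted p = 1.04e-10 in limma), Mt3 by 4.96 (SE 0.14, adjusted p = 8.09e-10) and Mt1 by 4.65 (SE 0.12, adjusted p = 3.06e-10) on the log2 scale, at ranks 10, 20 and 25 of the falls. Over the alternatives that fit all 12 libraries these ranks ran from 8 to 54 for Mt2, from 16 to 95 for Mt3 and from 22 to 134 for Mt1. NSC held 61.3 times as much Mt2, 35.3 times as much Mt3 and 25.8 times as much Mt1, as ratios of mean FPKM.

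MIM-Astrocytes held more of each gene than Glioblastoma, where 28.3% of tested genes were called higher. Mt3 was higher by 7.68 (SE 0.14, adjusted p = 4.4e-11 in limma), Mt2 by 5.83 (SE 0.12, adjusted p = 9.11e-11) and Mt1 by 4.69 (SE 0.12, adjusted p = 2.62e-10) on the log2 scale. Mt3 stood at rank 4 of all rises, Mt2 at rank 10 and Mt1 at rank 32. Over the alternatives that fit all 12 libraries the ranks ran from 4 to 10, from 7 to 51 and from 23 to 136. The ratios of mean FPKM were 234 for Mt3, 63.5 for Mt2 and 26.5 for Mt1.

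**Figure D2:**
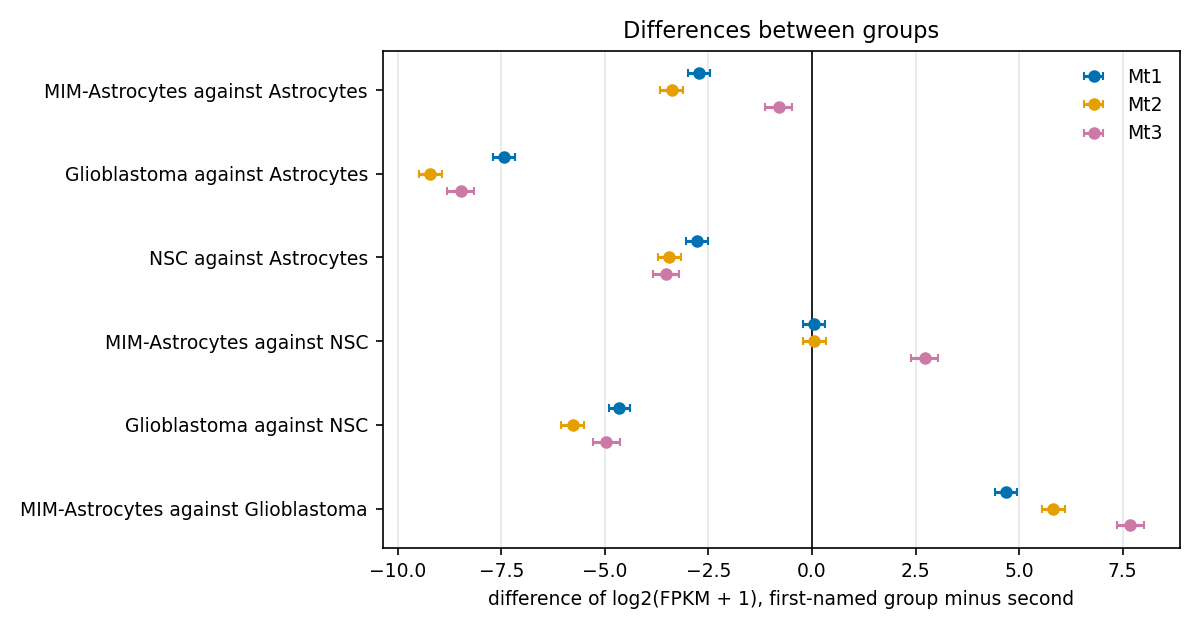
Difference of log2(FPKM + 1) for Mt1, Mt2 and Mt3 in each of the 6 comparisons, first-named group minus second, with 95% intervals from limma (n = 3 per group). All values lie clear of 0 but those of Mt1 (0.04) and Mt2 (0.06) between MIM-Astrocytes and NSC, and Mt3 differs least between MIM-Astrocytes and Astrocytes (-0.80).

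The make-up of the metallothionein RNA therefore differed between the groups, a comparison within a library that a scaling by 1 factor per library leaves as it is. Mt3 was 48.6%, 54.7% and 54.7% of the summed FPKM of the 3 genes in the libraries of MIM-Astrocytes. It was 11.8%, 14.2% and 15.4% in Glioblastoma, 14.2% to 15.4% in NSC, and 20.4%, 18.6% and 19.4% in Astrocytes. Mt3 was thus the largest of the 3 in MIM-Astrocytes alone among these groups, and the smallest in NSC and Astrocytes. Mt1 was 29.2% to 31.4% in the libraries of MIM-Astrocytes. It was the largest of the 3 elsewhere, at 69.5% ± 0.230 in Glioblastoma, 54.3% ± 0.210 in NSC and 42.4% ± 0.558 in Astrocytes (SD, n = 3 each).

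The ratio of Mt1 to Mt2, the inducible pair, was 1.57 to 1.86 in MIM-Astrocytes, 3.67 to 4.57 in Glioblastoma, 1.71 to 1.81 in NSC and 1.11 to 1.12 in Astrocytes. Its libraries did not overlap between groups except for MIM-Astrocytes and NSC. The log2 of the ratio was higher than in Astrocytes by 0.65 in MIM-Astrocytes, by 1.91 in Glioblastoma and by 0.66 in NSC, so wherever the pair was lower, Mt2 was lower by more than Mt1. Quantile normalization, which does change ratios within a library, narrowed the gap between Mt1 and Mt2 on the log2(FPKM + 1) scale. Mt1 and Mt2 then differed from Astrocytes by -3.15 and -3.42 in MIM-Astrocytes, -8.11 and -9.57 in Glioblastoma and -3.51 and -3.78 in NSC. In the main fit on that scale these differences were -2.74 and -3.38, -7.43 and -9.21, and -2.78 and -3.44. The ratio of Mt3 to the sum of Mt1 and Mt2 was 0.944 to 1.21 in MIM-Astrocytes, 0.134 to 0.182 in Glioblastoma, 0.166 to 0.181 in NSC and 0.228 to 0.256 in Astrocytes. Its log2 was 2.20 above that of Astrocytes and 2.67 above that of NSC in MIM-Astrocytes, and the libraries did not overlap. It was 0.60 lower in Glioblastoma than in Astrocytes. Between Glioblastoma and NSC it overlapped, with a log2 difference of -0.13 (two-sided exact permutation p = 0.6). With 3 libraries against 3 the exact permutation test cannot go below p = 0.1, the value that 10 of the 12 differences of ratios reached (0.12 after Benjamini-Hochberg adjustment over the 12), so none could pass.

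**Figure D3:**
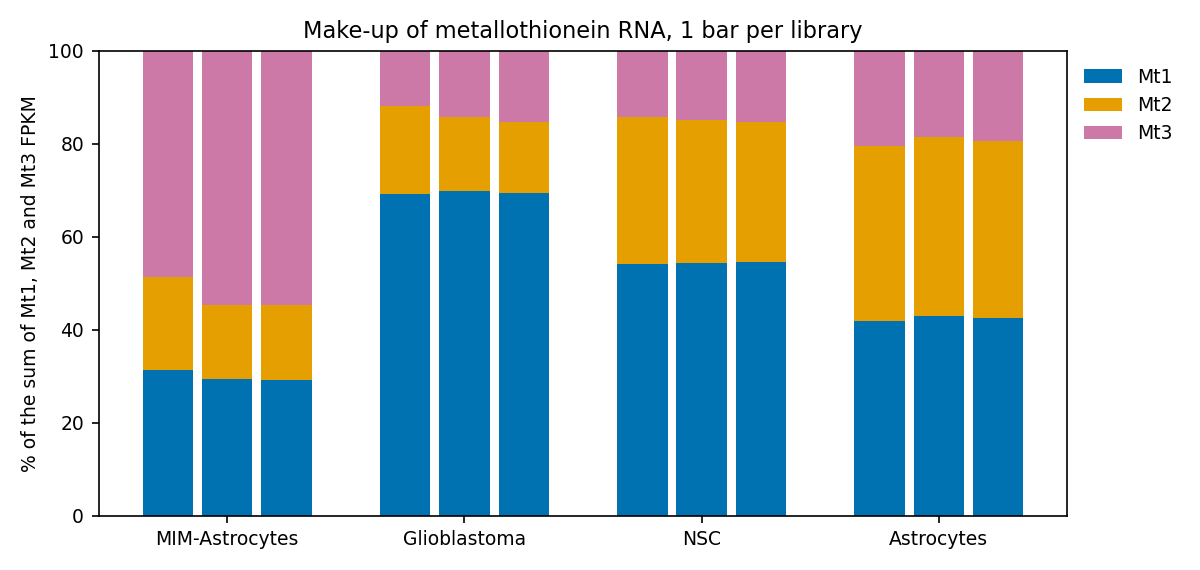
Share of Mt1, Mt2 and Mt3 in their summed FPKM, as 1 stacked bar for each of the 3 libraries of each group. Mt3 takes 48.6% to 54.7% of the bar in MIM-Astrocytes and 11.8% to 20.4% in the other groups.

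Mt4, the fourth gene of the cluster, which lies 13575 bases upstream of Mt3 and is known from squamous epithelium, was all but silent. It was listed at 0 in every library of MIM-Astrocytes and NSC and in 2 of 3 of Glioblastoma, against 0.630, 1.34 and 0.529 FPKM in Astrocytes, and it did not pass the filter on low values. The antisense gene RP23-98C9.5 over Mt2 was low, and lower in the other groups than in Astrocytes, at 0.734 ± 0.0983 FPKM in MIM-Astrocytes, 0.0912 ± 0.0231 in Glioblastoma, 0.890 ± 0.119 in NSC and 6.22 ± 0.833 in Astrocytes (SD, n = 3 each). It fell by 2.05 in MIM-Astrocytes (adjusted p = 1.01e-08 in limma), by 2.72 in Glioblastoma (adjusted p = 5.33e-10) and by 1.93 in NSC (adjusted p = 1.17e-08) against Astrocytes on the log2 scale. The share of its reads that came from Mt2 RNA was not tested.

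The nearest tested genes, 3 to the left and 4 to the right, changed less in Glioblastoma and in NSC, against Astrocytes, than Mt1, Mt2 and Mt3 did, while in MIM-Astrocytes Bbs2 fell by more than Mt3. To the left, Bbs2 (a subunit of the BBSome, which serves the primary cilium) moved most, with falls of 1.27 in MIM-Astrocytes (adjusted p = 3.38e-06 in limma), 1.59 in Glioblastoma (adjusted p = 2.63e-07) and 1.16 in NSC (adjusted p = 4.83e-06) against Astrocytes. To the right, Nup93, of the nuclear pore, differed by -0.46 in MIM-Astrocytes (adjusted p = 0.000225 in limma), by -1.37 in Glioblastoma (adjusted p = 2.16e-08) and by -2.17 in NSC (adjusted p = 9.99e-10). Herpud1, of the endoplasmic reticulum stress response, was 1.45 higher in Glioblastoma (adjusted p = 2.49e-07), where the differences of Mt1, Mt2 and Mt3 were -7.43, -9.21 and -8.48. Over these 7 neighbours the differences from Astrocytes ran between -1.27 and 0.66 in MIM-Astrocytes, between -1.59 and 2.25 in Glioblastoma and between -2.17 and 1.93 in NSC. The upper end of each range is the processed pseudogene RP23-98C9.8, whose reads may be shared with its parent gene.

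**Figure D4:**
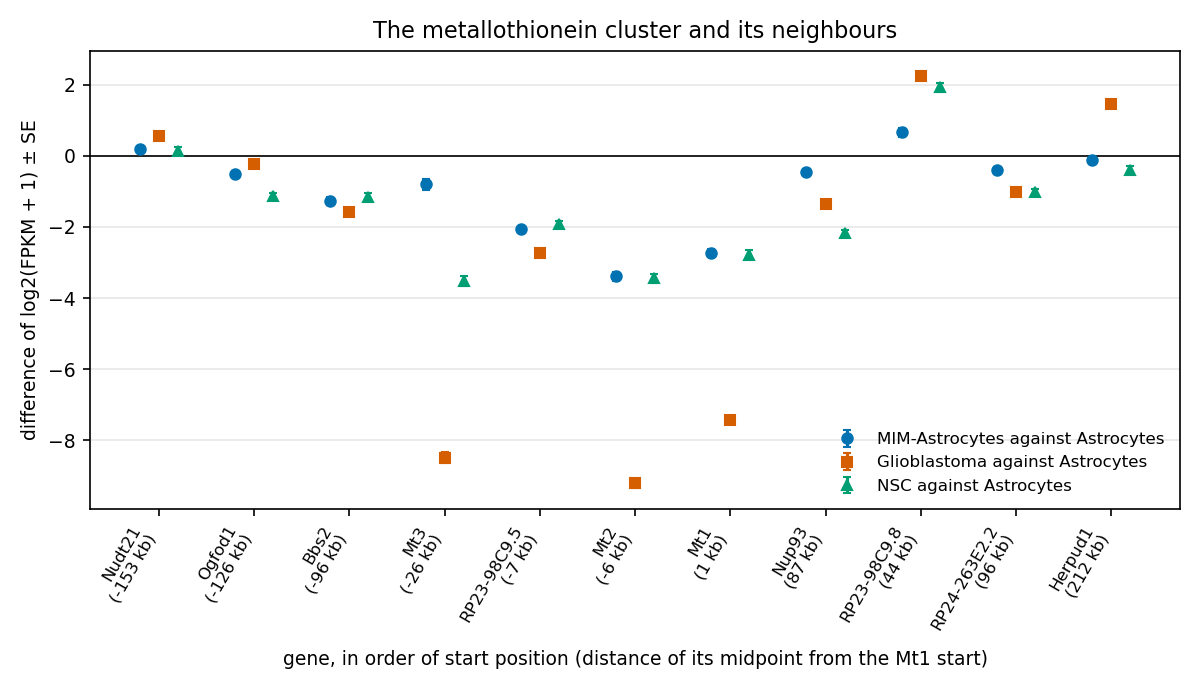
Difference of log2(FPKM + 1) from Astrocytes, with its SE, for the metallothionein genes, the antisense gene RP23-98C9.5 and the nearest tested genes, 3 to the left and 4 to the right, in order of start position. The Glioblastoma values of Mt1, Mt2 and Mt3 (-7.43 to -9.21) lie far below those of every neighbour, which run from -1.59 to 2.25.

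Zinc enters and leaves the cytosol through transporters, importers of the Slc39a family and exporters of the Slc30a family, and metallothionein holds part of what is inside. Of 24 listed transporter genes 17 were tested. In MIM-Astrocytes against Astrocytes 6 were called higher and 6 lower (35.3% each), beside 34.8% and 26.6% of all tested genes, and the median difference was 0.06, beside 0.09 for all tested genes. In Glioblastoma against Astrocytes 5 were higher and 6 lower, beside 47% and 31.3% of all tested genes, with a median of -0.09, beside 0.23 for all genes. In NSC against Astrocytes 4 were higher and 8 lower, beside 37.7% and 33.4% of all tested genes, with a median of -0.19, beside 0.07 for all genes. These counts moved with the scaling: under 4 others 2 to 4 were higher and 6 to 9 lower in MIM-Astrocytes, 4 higher and 10 to 12 lower in Glioblastoma, and 2 to 5 higher and 8 to 13 lower in NSC. The calls of all 16982 tested genes moved too. With libraries scaled to a common total, 3203 rose and 6788 fell in MIM-Astrocytes, 4673 and 7992 in Glioblastoma, and 3784 and 7852 in NSC.

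Slc39a12, which encodes a zinc importer of the brain, had the order of groups of the metallothioneins. It held 30.5 ± 1.14 FPKM in MIM-Astrocytes, 0.00789 ± 0.00759 in Glioblastoma, 4.01 ± 0.0915 in NSC and 243 ± 18.7 in Astrocytes (SD, n = 3 each). Against Astrocytes it differed by -2.95 in MIM-Astrocytes (adjusted p = 4.2e-11 in limma), by -7.92 in Glioblastoma (adjusted p = 6.23e-14) and by -5.61 in NSC (adjusted p = 6.75e-13), and it was 2.65 higher in MIM-Astrocytes than in NSC (adjusted p = 8.79e-10). Slc39a14, an importer of zinc, iron and manganese, fell by 1.77 in MIM-Astrocytes (adjusted p = 2.7e-07), by 0.96 in Glioblastoma (adjusted p = 1.67e-05) and by 1.78 in NSC (adjusted p = 1.79e-07). Slc30a10, best known as a manganese exporter, was highest in NSC, with 2.70 ± 0.0473 FPKM in MIM-Astrocytes, 0.0993 ± 0.0272 in Glioblastoma, 12.4 ± 0.0766 in NSC and 0.166 ± 0.0387 in Astrocytes. It was higher than in Astrocytes by 1.67 in MIM-Astrocytes (adjusted p = 4.43e-10) and by 3.52 in NSC (adjusted p = 2.77e-12), and differed by -0.09 in Glioblastoma (adjusted p = 0.11).

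**Figure D5:**
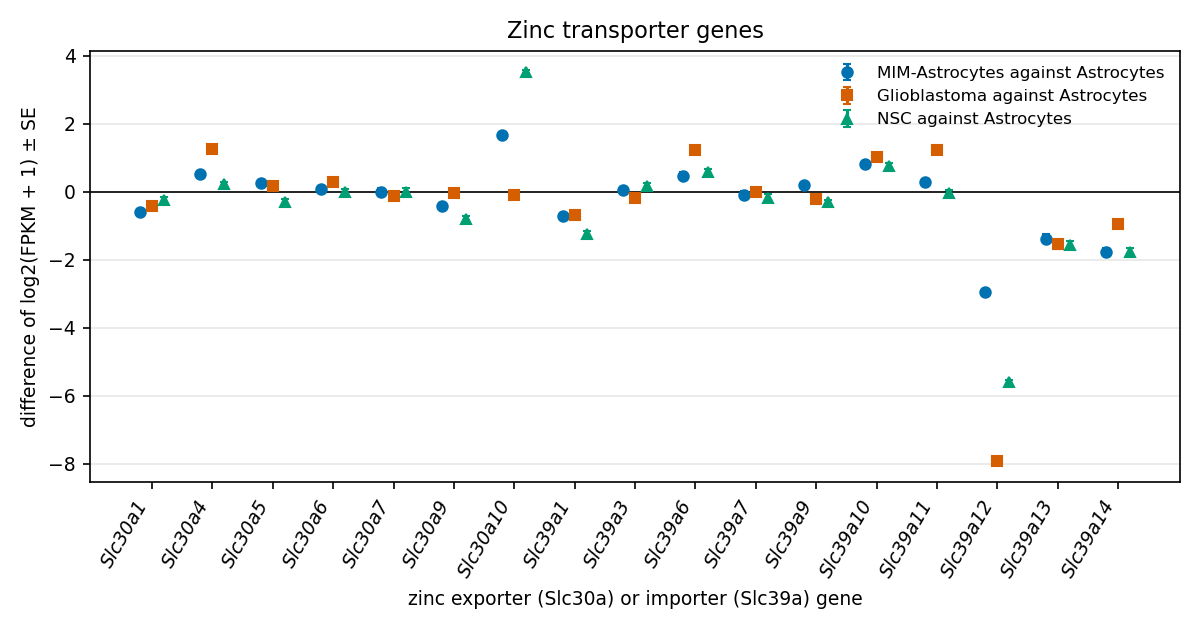
Difference of log2(FPKM + 1) from Astrocytes, with its SE, for the 17 tested zinc transporter genes in MIM-Astrocytes, Glioblastoma and NSC. Most lie within 2 units of 0, and Slc39a12 (-2.95, -7.92 and -5.61) and, in NSC, Slc30a10 (3.52) lie furthest from it.

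Mtf1, the zinc sensor and the transcription factor that zinc activates, held 5.11 ± 0.175 FPKM in MIM-Astrocytes, 2.76 ± 0.183 in Glioblastoma, 5.03 ± 0.286 in NSC and 4.47 ± 0.251 in Astrocytes (SD, n = 3 each). It fell by 0.54 in Glioblastoma against Astrocytes (adjusted p = 8.83e-06 in limma), while its difference of 0.16 in MIM-Astrocytes (adjusted p = 0.0345) was lost under other scalings and that of 0.14 in NSC did not pass (adjusted p = 0.0502). Slc30a1, the zinc exporter that MTF1 induces together with Mt1, held 4.92 ± 0.123, 5.68 ± 0.275, 6.65 ± 0.965 and 7.98 ± 0.518 FPKM in MIM-Astrocytes, Glioblastoma, NSC and Astrocytes. It fell by 0.60 in MIM-Astrocytes (adjusted p = 0.000131) and by 0.43 in Glioblastoma (adjusted p = 0.000891) against Astrocytes, and differed by -0.24 in NSC (adjusted p = 0.0274), a call lost without 1 library (Astrocytes 1 or 2, or NSC 1 or 3). Slc39a10, an importer that MTF1 represses, was higher than in Astrocytes by 0.81 in MIM-Astrocytes (adjusted p = 2.61e-05), by 1.01 in Glioblastoma (adjusted p = 2.33e-06) and by 0.74 in NSC (adjusted p = 3.67e-05). Of 8 tested genes on the list of Mtf1 and its targets other than metallothioneins, 3 rose and 3 fell in MIM-Astrocytes, 2 and 5 in Glioblastoma and 1 and 4 in NSC, all against Astrocytes. The shares of all tested genes that rose and fell there were 34.8% and 26.6%, 47% and 31.3%, and 37.7% and 33.4%. The median differences of the list were 0.04, -0.48 and -0.15, beside 0.09, 0.23 and 0.07 for all tested genes. Slc39a10 was among the rises in each group and was the only rise in NSC. These counts and medians therefore mix a gene that MTF1 represses with the others. Under the 4 other scalings the Glioblastoma median ran from -0.997 to -0.651, while that of all tested genes ran from -0.263 to 0.0274. With a common total 1 gene of the list rose and 6 fell in NSC, where 3784 of all 16982 tested genes rose and 7852 fell.

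Glucocorticoids are the other classical inducers of Mt1 and Mt2. Nr3c1, the glucocorticoid receptor gene, held 29.2 ± 0.830 FPKM in MIM-Astrocytes, 8.08 ± 0.441 in Glioblastoma, 22.1 ± 1.54 in NSC and 24.1 ± 1.04 in Astrocytes (SD, n = 3 each), and fell by 1.46 in Glioblastoma against Astrocytes (adjusted p = 4.53e-09 in limma). The receptor targets Fkbp5 and Tsc22d3 differed in direction in MIM-Astrocytes. Fkbp5, a co-chaperone of the receptor, was higher than in Astrocytes by 0.84 in MIM-Astrocytes (adjusted p = 0.000503) and by 1.88 in Glioblastoma (adjusted p = 5.38e-07). Tsc22d3 (GILZ) fell by 0.99 in MIM-Astrocytes (adjusted p = 6.77e-06) and by 1.92 in NSC (adjusted p = 2.59e-08), and differed by 0.39 in Glioblastoma (adjusted p = 0.0034), a call lost under all 4 other scalings. Of 16 tested genes of the glucocorticoid list, 4 rose and 10 fell in MIM-Astrocytes, 5 and 10 in Glioblastoma and 4 and 8 in NSC against Astrocytes, beside 34.8% and 26.6%, 47% and 31.3%, and 37.7% and 33.4% of all tested genes. Their medians were -0.43, -0.65 and -0.28, beside 0.09, 0.23 and 0.07 for all genes. With a common total 2 rose and 11 fell in MIM-Astrocytes, 3 and 11 in Glioblastoma and 1 and 11 in NSC. Among all 16982 tested genes that total gave 3203 and 6788, 4673 and 7992, and 3784 and 7852. Cebpd, a transcription factor gene, had the smallest adjusted p among the falls of this list both in MIM-Astrocytes (-2.13, adjusted p = 5.31e-09) and in NSC (-2.56, adjusted p = 9.72e-10). It is also a member of the STAT3 list.

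Cytokines of the interleukin 6 family reach Mt1 and Mt2 through the receptor chain gp130 and STAT3, a route that also drives astrocyte formation. Il6st, the gp130 gene, held 70.5 ± 9.54 FPKM in MIM-Astrocytes, 52.2 ± 5.86 in Glioblastoma, 44.5 ± 10.3 in NSC and 432 ± 20.9 in Astrocytes (SD, n = 3 each). The ligand gene Cntf (ciliary neurotrophic factor) held 4.13 ± 0.275, 1.57 ± 0.199 and 1.89 ± 0.244 FPKM in MIM-Astrocytes, Glioblastoma and NSC, against 132 ± 17.2 in Astrocytes. The receptor gene Osmr (oncostatin M receptor) fell by 2.66 in MIM-Astrocytes (adjusted p = 3.94e-10 in limma), by 2.02 in Glioblastoma (adjusted p = 1.14e-09) and by 3.32 in NSC (adjusted p = 6.49e-11) against Astrocytes. Stat3 itself and its target Socs3, a feedback inhibitor, were low in MIM-Astrocytes and NSC but not in Glioblastoma. Stat3 held 42.6 ± 2.77 FPKM in MIM-Astrocytes, 113 ± 4.24 in Glioblastoma, 48.9 ± 0.475 in NSC and 89.5 ± 2.29 in Astrocytes, and its rise in Glioblastoma changed sign or lost its call under all 4 other scalings. Socs3 held 1.94 ± 0.553, 19.2 ± 1.36, 1.97 ± 0.606 and 9.82 ± 0.762 FPKM in the same order. The fall of Socs3 was 1.89 in MIM-Astrocytes (adjusted p = 3.08e-06) and 1.88 in NSC (adjusted p = 2.2e-06), whereas in Glioblastoma it was 0.90 higher than in Astrocytes (adjusted p = 0.000473), a call lost with a common total. Of 14 tested genes of this list 3 rose and 10 fell in MIM-Astrocytes, 5 and 8 in Glioblastoma and 3 and 10 in NSC against Astrocytes, beside 34.8% and 26.6%, 47% and 31.3%, and 37.7% and 33.4% of all tested genes. Their medians were -0.80, -1.19 and -0.83, beside 0.09, 0.23 and 0.07 for all genes. With a common total 2 rose and 11 fell in MIM-Astrocytes, 3 and 9 in Glioblastoma and 1 and 11 in NSC. The same total gave 3203 and 6788, 4673 and 7992, and 3784 and 7852 among all 16982 tested genes.

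Across the 12 libraries the log2 levels of Mt1 and Mt2 had a Pearson correlation of 0.9996, that of Mt1 with Mt3 was 0.947 and that of Mt2 with Mt3 was 0.946. The points fall into 4 groups, so these values mostly describe the group means. For deviations from the group means the values were 0.747 for Mt1 and Mt2, 0.743 for Mt1 and Mt3 and 0.140 for Mt2 and Mt3. Among 10276 genes with a mean of at least 5 FPKM, those most like Mt1 were Pygb (brain glycogen phosphorylase) at 0.998, then Tmem47, Mgrn1, Pink1 and Mxra8. Those most like Mt2 were Pygb at 0.999, then Tmem47, Mgrn1, Mxra8 and Abhd4. Pygb held 125 FPKM in MIM-Astrocytes, 15.8 in Glioblastoma, 129 in NSC and 402 in Astrocytes as group means. Those most like Mt3 were other genes, with Cpped1 at 0.998, then Abat (which breaks down the transmitter GABA), Decr1, Nrcam and Cst3 (cystatin C). Cst3 held 3817 FPKM in MIM-Astrocytes, 446 in Glioblastoma, 1520.4 in NSC and 4036 in Astrocytes as group means. All these correlations come from the same 12 libraries and are given as a description.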

How the data were processed

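Total RNA of mouse cell cultures was sequenced, 3 libraries in each of 4 groups. Per the submitters' processing notes and the file headers, the authors deposited FPKM made with Cufflinks on GRCm38, in 1 table per library that also holds intervals and a status. The Cufflinks version, the aligner, the strandedness and the read length are not given in the sources used here, and the depth is unknown, since the tables hold no counts. Values of 45 identifiers that stood on more than 1 line were added. GENCODE M21 held 99.9% of the identifiers, gave the members the same starts and ends as the files, and supplied transcripts that were aligned with BLAST 2.17.0. Promoters were taken from RefSeq.

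Genes with at least 1 FPKM in at least 3 libraries and the status OK in all 12 were tested, 16982 in all, as log2(FPKM + 1). limma 3.58.1 (R 4.3.3) fitted the 4 group means to the 12 libraries together, which leaves 8 residual degrees of freedom, and its trend option let the prior variance depend on the level. Every adjusted p of a gene is from limma, two-sided, and adjusted by the method of Benjamini and Hochberg in each of 6 comparisons. A fold on this scale understates the change of low genes. Ratios between members were compared with exact permutation tests in SciPy 1.17.1, and figures were drawn with matplotlib 3.10.9. The fit was also run on simulated data, whose outcome is not reported here. The alternatives tried were each library left out, 4 scalings, array weights, a fit to the 6 libraries compared with and without a replicate block, smaller pseudocounts (0.1 and 0.5), a looser and a stricter filter (none, or mean FPKM of 5 or more), any status, and the highest line of an identifier. Ranks were followed only in those that fit all 12 libraries, and the filters changed how many genes were ranked.

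The members, the gene lists and the comparisons were chosen with earlier results of these data known, and no list was tested as a set. Genes named beside the members follow a rule: 14 fixed genes of metal, glucocorticoid, STAT3 and antioxidant control, up to 2 genes each way per list and comparison with the smallest adjusted p, the 5 genes most correlated with each member, the 4 nearest tested genes on each side, and cell type markers. Not every gene that the rule picks is named, and 1 neighbour and 1 shared stretch of sequence are not reported here. Il6st and Fth1 fall outside it and were chosen after their values were seen.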

Additional observations from a re-analysis of the deposited data

How the results depend on the processing

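Of the 18 differences of Mt1, Mt2 and Mt3, the 16 called kept their direction and their call under all 304 alternatives run over them. With the replicate numbers as a block, Mt3 in MIM-Astrocytes against Astrocytes still fell by 0.80 but reached only an adjusted p of 0.0419 in limma, the highest of its alternatives (lowest 8.6e-07), and the block changed no call of a member (9495 genes were called, beside 10423 in the fit of all libraries). No label says that the numbers pair libraries, and the deviations of same-numbered libraries correlated at -0.058 to 0.097, so they are taken to share only a number. Over 4 other scalings that difference ran from -1.14 to -0.91, that of Mt2 from -3.72 to -3.42 and that of Mt1 from -3.15 to -2.84. Mt1 between MIM-Astrocytes and NSC changed sign with median-of-ratios scaling (-0.0106), without mitochondrial genes and small RNAs (-0.0421) and with array weights (-0.0202), and leaving out 1 library gave -0.0413 to 0.105. Mt2 did so without mitochondrial genes and small RNAs (-0.0264) and with array weights (-0.0568), and leaving out 1 library gave -0.0460 to 0.142. Neither was called under any alternative (adjusted p 0.0525 to 0.991). The log2 ratio of Mt1 to Mt2 between these groups ran from -0.0614 to 0.0609 without 1 library, and that of Mt3 to the others between Glioblastoma and NSC turned to 0.0304 with 1 added to each FPKM. With a mean of at least 5 FPKM fewer genes were tested, and 6807 were called in MIM-Astrocytes, 8446 in Glioblastoma and 7745 in NSC against Astrocytes, 7681 in Glioblastoma against NSC and 7665 in MIM-Astrocytes against Glioblastoma, beside 10423, 13294, 12087, 11876 and 11847. Scaling to a common total shifted the median of all genes by -0.26 in MIM-Astrocytes, -0.49 in Glioblastoma and -0.31 in NSC against Astrocytes, and the higher genes were then 32.1%, 36.9% and 32.5% of the calls, beside 56.7%, 60% and 53%. In Glioblastoma against NSC they were 48% to 52.8% under the 4 scalings, beside 64.1%, in MIM-Astrocytes against Glioblastoma up to 55.6%, beside 40.5%, and in Glioblastoma against Astrocytes up to 51.1%. Small differences of list genes, under about 0.5 on the log2 scale, often lost their call or sign under these scalings, those of Mtf1 in MIM-Astrocytes and of Stat3 in Glioblastoma against Astrocytes among them. The precision is lowest in Glioblastoma, where the Cufflinks intervals of the members reach 23.2% of the value to each side.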

Other observations

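Copper and iron are handled beside zinc in the same cells. Of 14 copper genes tested, 5 rose and 7 fell in MIM-Astrocytes, 4 and 9 in Glioblastoma and 3 and 8 in NSC against Astrocytes (under a common total 1 rose and 8 fell, 3 and 11, and 0 and 11). In the main fit the shares of all tested genes that rose and fell in these comparisons were 34.8% and 26.6%, 47% and 31.3%, and 37.7% and 33.4%. Under a common total 3203 of all 16982 tested genes rose and 6788 fell, 4673 and 7992, and 3784 and 7852. The list had median log2 differences of -0.20, -0.23 and -0.36, beside 0.09, 0.23 and 0.07 for all tested genes. Cp (ceruloplasmin, a copper protein that oxidises iron) held 50.5 ± 2.03 FPKM in MIM-Astrocytes, 2.39 ± 0.166 in Glioblastoma, 21.2 ± 0.771 in NSC and 466 ± 21.8 in Astrocytes (SD, n = 3 each), and it was 1.21 higher in MIM-Astrocytes than in NSC (adjusted p = 7.19e-08 in limma). Atp7b, a copper exporter, fell by 1.48 in MIM-Astrocytes (adjusted p = 6.69e-09), by 1.82 in Glioblastoma (adjusted p = 6.27e-10) and by 2.12 in NSC (adjusted p = 3.47e-10) against Astrocytes. Of 16 iron genes tested, 6 rose and 8 fell in MIM-Astrocytes, 4 and 9 in Glioblastoma and 4 and 9 in NSC, with medians of -0.28, -0.33 and -0.28, beside the same shares and medians of all genes. With a common total these counts were 3 and 10, 3 and 12, and 2 and 10, beside the counts of all tested genes given above for that total. Trf (transferrin) held 5.56 ± 0.749 FPKM in MIM-Astrocytes, 104 ± 5.68 in Glioblastoma, 2.25 ± 0.136 in NSC and 1.01 ± 0.332 in Astrocytes. The ferritin chains parted: Ftl1 was higher than in Astrocytes in all 3 groups, by 1.45, 1.22 and 1.59, while Fth1 fell by 0.74, 1.26 and 2.72, all called (in the order MIM-Astrocytes, Glioblastoma and NSC). Ferritin genes have many processed pseudogenes, which can take or give reads.

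Antioxidant genes separated MIM-Astrocytes from NSC, although Mt1 and Mt2 did not. The list for NRF2, the transcription factor of the antioxidant response, also holds Nfe2l2, the gene of NRF2 itself. Of its 14 tested members, 13 were called above NSC in MIM-Astrocytes and 0 below it, also under each of 4 other scalings. Their median difference was 1.08, beside 0.02 for all tested genes, of which 31% were called higher and 24.9% lower. Me1 (malic enzyme, which makes NADPH) held 66.0 ± 1.74 FPKM in MIM-Astrocytes and 13.8 ± 0.773 in NSC, and Gclc, which starts glutathione synthesis, held 32.6 ± 2.09 and 10.2 ± 0.453 FPKM (SD, n = 3 each). Hmox1 (heme oxygenase) was 2.51 higher in MIM-Astrocytes (adjusted p = 2.57e-08 in limma), and Gclm, the partner of Gclc, was 2.02 higher (adjusted p = 2.3e-08). Against Astrocytes 6 of the 14 rose and 5 fell in MIM-Astrocytes, 4 and 9 in Glioblastoma and 2 and 12 in NSC, with medians of 0.19, -0.97 and -1.11. All tested genes had shares of 34.8% and 26.6%, 47% and 31.3%, and 37.7% and 33.4% and medians of 0.09, 0.23 and 0.07. Under the 4 other scalings 1 to 2 rose and 10 to 11 fell in Glioblastoma, while of all tested genes 4673 to 6737 rose and 6453 to 7992 fell. Nfe2l2, the NRF2 gene, fell against Astrocytes by 0.92 in MIM-Astrocytes (adjusted p = 5.06e-07), by 1.39 in Glioblastoma (adjusted p = 9.39e-09) and by 1.75 in NSC (adjusted p = 2.36e-09). Its target Nqo1 fell by 0.73 in Glioblastoma (adjusted p = 6.6e-05) and 0.65 in NSC (adjusted p = 0.00021), and differed by -0.20 in MIM-Astrocytes (adjusted p = 0.117).

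Of 25 genes of thiol and peroxide metabolism, 15 were higher and 2 lower in MIM-Astrocytes than in NSC, with a median of 0.74. Beside this, 31% of all tested genes were called higher and 24.9% lower, with a median of 0.02. Under other scalings 15 to 16 of the 25 were higher and 2 to 6 lower, while of all tested genes 4841 to 5299 were higher and 3257 to 5123 lower. Against Astrocytes 10 rose and 10 fell in MIM-Astrocytes, 10 and 13 in Glioblastoma and 6 and 17 in NSC, beside 34.8% and 26.6%, 47% and 31.3%, and 37.7% and 33.4% of all tested genes. With a common total these counts were 5 and 13, 6 and 15, and 4 and 19. Those of all 16982 tested genes were then 3203 and 6788, 4673 and 7992, and 3784 and 7852. Prdx6, a peroxiredoxin, had the order of groups of the metallothioneins, at 1031 ± 55.7 FPKM in MIM-Astrocytes, 87.0 ± 0.921 in Glioblastoma, 281 ± 28.7 in NSC and 5032 ± 576 in Astrocytes (SD, n = 3 each). Txn1 (thioredoxin) went the other way, higher than in Astrocytes by 2.38 in MIM-Astrocytes (adjusted p = 5.78e-08 in limma), by 1.94 in Glioblastoma (adjusted p = 1.37e-07) and by 1.88 in NSC (adjusted p = 2.67e-07). Sod1, the copper and zinc superoxide dismutase, was 0.98 higher in MIM-Astrocytes than in NSC (adjusted p = 2.71e-05).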
